A study of Mus musculus with 12 samples.

Results

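Immediate early genes are the first genes a cell transcribes after a growth factor, hormone or stress reaches it. The 10 genes described here were Fos, Fosb, Jun, Junb, Egr1, Atf3, Ier2, Nr4a1, Dusp1 and Zfp36. They were taken by name, as all probe sets annotated to exactly 1 of them, which gave 11 probe sets of 45101 on the array (10 of 18193 genes with a probe set of their own), with a pair for Jun and 1 for each other gene. Of these, 10 probe sets for 9 genes lay above the filter on dim values and were tested. Fosb was too dim.

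Whole testes were taken at postnatal day 7, and their RNA was hybridised to 12 Affymetrix arrays. The mice had a mixed background, given as C57BL/6, 129S5, SvEvBrd hybrid. There were 4 arrays of Sohlh1-/- testes, 4 of Sohlh2-/- testes and 4 of wild-type testes, and the labels name no agent. The proteins Sohlh1 and Sohlh2 are transcription factors of spermatogonia, and the labels do not give the extent of either deletion. Each array held 3 pooled testes from 3 animals, so replicates are pools and p-values measure the spread between pools. In such bulk samples, fewer cells of a type and less RNA per cell cannot be told apart.

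Most immediate early genes need no new protein to be switched on. Extracellular signals reach them through ERK kinases and serum response factor, which binds the CArG box, or through cyclic AMP and CREB, which binds the sequence TGACGTCA or its shorter form TGACG. Their transcripts are short-lived, and several of their products, among them Dusp1 and Zfp36, shut the response down again. In the testis, Nr4a1 is known as a factor of Leydig cells that luteinizing hormone induces and that acts on genes of steroid synthesis.

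Values were MAS5 signals on a linear scale, scaled so that all arrays shared a trimmed mean of 500.0. Signals of different probe sets are not comparable with each other, so each gene is set only against itself. The targeted genes went against the label on 2 arrays. On Sohlh1 knockout 5, Sohlh1 stood at 50.6% and Sohlh2 at 8.98% of the wild-type mean. On Sohlh2 knockout 1, Sohlh1 stood at 10.8% and Sohlh2 at 176%. For comparison, Sohlh1 stood at 8.85%, 5.19% and 4.27% and Sohlh2 at 148%, 170% and 153% on Sohlh1 knockout 2, 3 and 4. On Sohlh2 knockout 3-1, 4 and 5, Sohlh1 stood at 39.6%, 42.0% and 48.0% and Sohlh2 at 15.0%, 8.91% and 6.965%. Each of the 2 arrays thus had the pattern of the other knockout. Whether their labels were exchanged was not tested. The ratio of 3' to 5' control probe sets, a measure of RNA integrity, was highest on Sohlh2 knockout 1 (Gapdh 1.63) and Sohlh1 knockout 2 (1.17), and between 0.744 and 0.818 on the other 10 arrays. All groups below are as labelled. The 3 arrays Sohlh1 knockout 2, Sohlh1 knockout 5 and Sohlh2 knockout 1 are called doubted arrays below. Values without them are given where they moved a call, or a fold change against wild type of at least 0.1 in size by over 1.5 times. The summed signal of each of the 8 lists of cell markers overlapped between either knockout and wild type. That of germ cell genes was 33002 to 38102 in the Sohlh1 knockout, 34562 to 38650 in the Sohlh2 knockout and 37741 to 43273 in wild type. Only the doubted array Sohlh1 knockout 5 (38102) and Sohlh2 knockout 4 (38650) reached the wild-type range. The germ cell sum joins genes with opposite log2 fold changes, such as Kit (-1.92) and Stk31 (0.50) in the Sohlh1 knockout. Overlap of sums therefore does not show an equal make-up of cells.

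The promoters of 3 genes are shown because their transcripts mark the ends of the range found below. Nr4a1 and Fos varied most between single arrays for their signal level, together with the brighter Jun probe set, and Dusp1 was among those that varied least. The sequences are the 250 bases before the RefSeq start site in build GRCm38.p6, written 5' to 3' on the gene's strand, with TGACG and TGACGTCA in capitals (CGTCA is TGACG on the opposite strand).
Nr4a1: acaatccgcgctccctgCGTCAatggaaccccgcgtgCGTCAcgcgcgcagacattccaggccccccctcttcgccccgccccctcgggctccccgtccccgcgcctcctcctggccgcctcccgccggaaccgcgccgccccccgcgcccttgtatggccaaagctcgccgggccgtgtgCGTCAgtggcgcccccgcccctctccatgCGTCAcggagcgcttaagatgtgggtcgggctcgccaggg
Fos: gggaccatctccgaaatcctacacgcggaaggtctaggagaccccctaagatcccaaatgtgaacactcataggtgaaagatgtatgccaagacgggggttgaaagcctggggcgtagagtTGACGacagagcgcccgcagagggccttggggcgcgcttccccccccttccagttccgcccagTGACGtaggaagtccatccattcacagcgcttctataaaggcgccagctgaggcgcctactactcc
Dusp1: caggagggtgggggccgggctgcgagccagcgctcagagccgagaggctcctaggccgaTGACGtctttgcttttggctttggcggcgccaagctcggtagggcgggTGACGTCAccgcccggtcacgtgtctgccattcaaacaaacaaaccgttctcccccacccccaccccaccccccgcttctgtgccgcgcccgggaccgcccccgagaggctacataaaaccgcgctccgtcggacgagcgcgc
These lie at chr15:101266596-101266845 on the plus strand, chr12:85473640-85473889 on the plus strand and chr17:26508473-26508722 on the minus strand. The Nr4a1 sequence held 4 copies of TGACG, the Fos sequence 2, and the Dusp1 sequence 3 that include the pair within its 1 TGACGTCA. Over all 32851 RefSeq promoters of this length, searched on both strands, 17.8% held TGACG and 1.55% held TGACGTCA. Promoter sequences were found for 8 of the 10 genes, and Egr1 and Ier2 had none to search. Atf3, Fosb and Junb held 1 TGACG each, Jun held none, and Zfp36 held the 1 CArG box among the 8, a motif found in 1.47% of all promoters. Bases farther from the start site than these 250 were not searched, so a gene without a match here may hold the motif elsewhere. The copies of TGACG thus stood in the promoters of both variable and steady transcripts, and a match is a description of the letters only.

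No member probe set passed the threshold of an adjusted p under 0.05 in any comparison. With limma's moderated F test, which sets the differences among the 3 group means against the spread between arrays, 0 of 10 member probe sets passed, where 1.58% of all 28694 tested probe sets did. At an unadjusted p under 0.05 there were 4, namely Junb, Atf3, Nr4a1 and Dusp1, against 12.4% of all probe sets. Between the Sohlh1 knockout and wild type 0 of 10 passed (background 2.09%, of which 1.38% lower and 0.707% higher) and 3 had an unadjusted p under 0.05 (background 14.9%). Between the Sohlh2 knockout and wild type 0 passed (background 1.55%, of which 0.944% lower and 0.606% higher) and 2 had an unadjusted p under 0.05 (background 13.5%). Both comparisons share the wild-type arrays. Between the Sohlh2 and Sohlh1 knockouts 0 members passed, as did 0% of all probe sets, and 0 members had an unadjusted p under 0.05 (background 2.67%). Sohlh1 and Sohlh2 themselves did not pass there, with 1 array in each knockout group going against its label. With the groups as labelled, this comparison therefore cannot show that members do not differ between the knockouts.

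**Figure D1:**
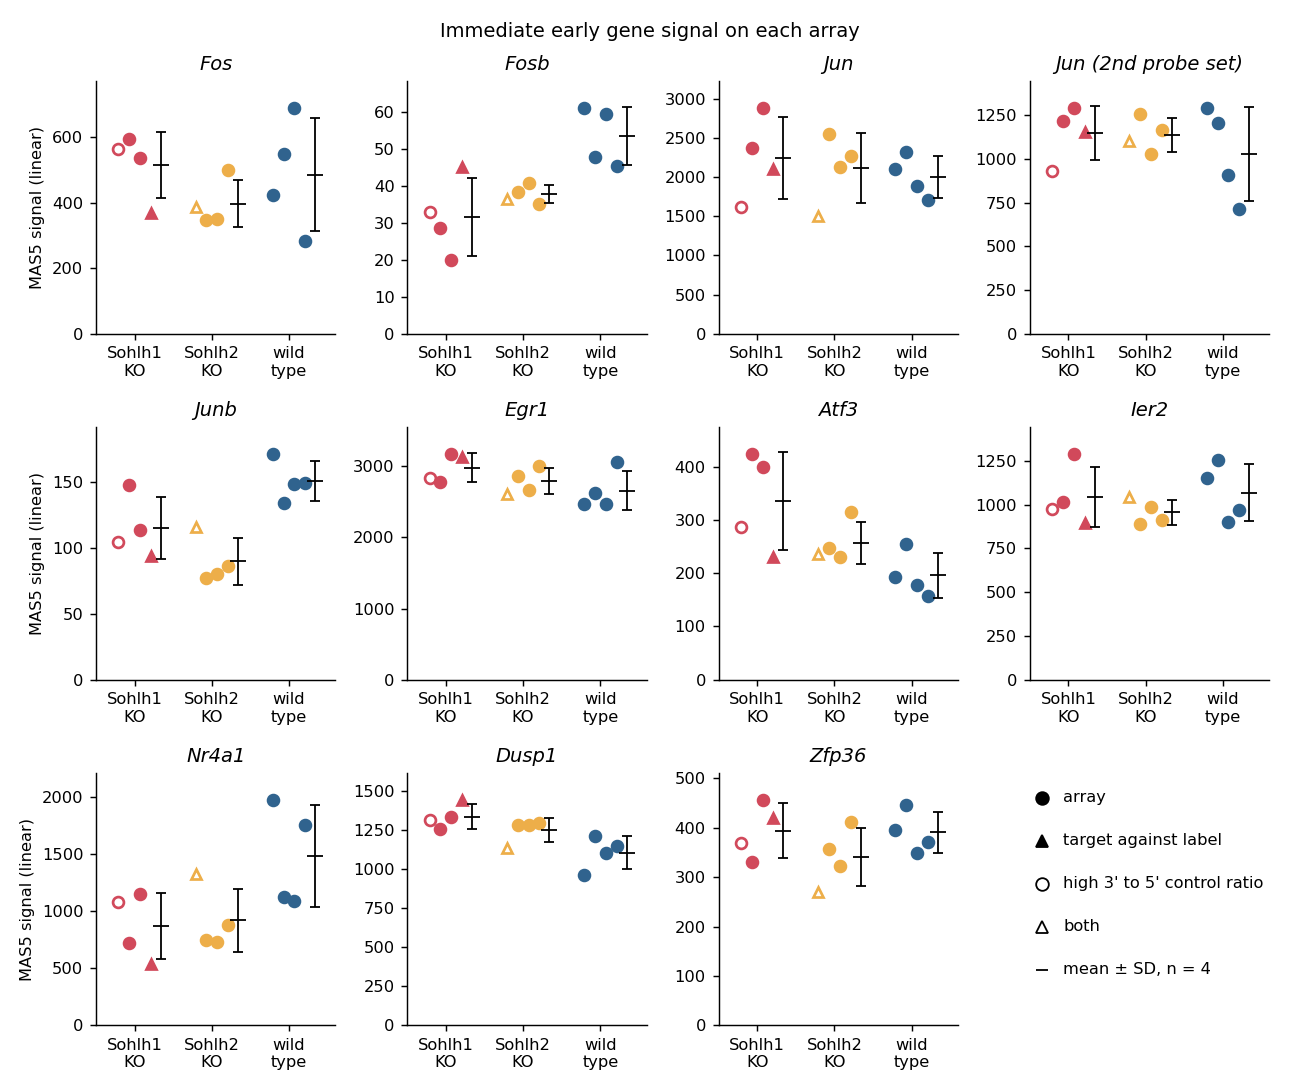
Signal of each member probe set on each array (linear MAS5 signal, axis from 0), with Sohlh1 knockout, Sohlh2 knockout and wild type from left to right and arrays in the order of their numbers. Triangles mark arrays on which a targeted gene contradicted the label, open symbols are arrays where the 3' to 5' control ratio was high, and bars are means with SD (n = 4). Nr4a1 ranged from 535 to 1973 over the 12 arrays, Egr1 only from 2471 to 3176.

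Nr4a1, an orphan nuclear receptor, varied most between arrays. Its signal was 1075, 719, 1147 and 535 on Sohlh1 knockout arrays 2, 3, 4 and 5, then 1319.7, 748, 731 and 880.5 on Sohlh2 knockout arrays 1, 3-1, 4 and 5, and 1973, 1124, 1088 and 1748 on wild-type arrays 3, 4, 5 and 6. Wild type 3 and 6 stood far above wild type 4 and 5. The Sohlh1 knockout overlapped with the lower wild-type arrays through array 4 only. The Sohlh2 knockout overlapped with them through array 1 only, which is a doubted array. The highest array was 2.14 times the lowest in the Sohlh1 knockout, 1.80 times in the Sohlh2 knockout and 1.81 times in wild type. Its SD within groups was 0.45 on the log2 scale, 2.51 times the SD that limma's trend expects at its signal level, a ratio above that of 97.0% of all tested probe sets.

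The mean of Nr4a1 was 869 ± 291 in the Sohlh1 knockout and 1483 ± 446 in wild type (SD, n = 4 each). The log2 fold change of -0.78 (SE 0.26, 95% interval -1.33 to -0.22) did not pass (adjusted p = 0.163). In the Sohlh2 knockout the mean was 920 ± 275, and the log2 fold change against wild type of -0.67 (SE 0.26, 95% interval -1.23 to -0.12) did not pass either (adjusted p = 0.263). With the control ratio in the fit as a covariate both passed, at -0.90 (adjusted p = 0.0237) and -0.86 (adjusted p = 0.0470). Without the 2 arrays of high ratio the Sohlh1 comparison passed at -0.90 (adjusted p = 0.0470), and without all 3 doubted arrays the Sohlh2 comparison passed at -0.86 (adjusted p = 0.0409). The Sohlh1 fold change was smaller and did not pass without the 2 arrays of doubted label (-0.57, adjusted p = 0.155) or without all 3 doubted arrays (-0.65, adjusted p = 0.190). Over all 28 alternatives, adjusted p ran from 0.0237 to 0.376 in the Sohlh1 comparison and from 0.0409 to 0.518 in the Sohlh2 comparison.

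Sohlh1 knockout 5 was the lowest array of its group for Nr4a1 and Sohlh2 knockout 1 the highest of its own, and these are the 2 arrays of doubted label. Leydig cell markers are given beside Nr4a1 because that cell type is known to express it. Of 8 such markers 5 were tested, and the other 3 had no probe set named for them alone. Their summed signal was 15017, 13854, 14541 and 13403 on Sohlh1 knockout arrays 2 to 5, then 14616, 11724, 12235 and 12615 on Sohlh2 knockout arrays 1, 3-1, 4 and 5, and 14866, 14739, 12240 and 12072 on wild-type arrays 3 to 6. The sum was highest on Sohlh2 knockout 1 and lowest on Sohlh1 knockout 5 within their groups, as Nr4a1 was, but wild type 6 was high for Nr4a1 and lowest of its group for the markers. Over the 12 arrays the sum had Pearson r = 0.31 with Nr4a1 (permutation p = 0.320, adjusted p = 0.719) and Spearman rho = 0.33 (permutation p = 0.298, adjusted p = 0.607), and r = 0.21 without Sohlh1 knockout 5 and wild type 3. For deviations from group means r was 0.55 (permutation p = 0.0852, adjusted p = 0.284). The relation did not pass, and the part of Leydig cells in the spread of Nr4a1 was not tested further.

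Among the AP-1 proteins, Fos and Jun had wide spreads within groups. AP-1 is the dimer that Fos and Jun proteins form on DNA. Fos had 565, 595, 537 and 370 on Sohlh1 knockout arrays 2 to 5, then 389, 346, 351 and 501 on Sohlh2 knockout arrays 1, 3-1, 4 and 5, and 423, 548, 689 and 284 on wild-type arrays 3 to 6. Wild type held both the highest and the lowest array of all, 2.43-fold apart, and the groups overlapped. The within-group SD was 0.38, 1.78 times the expected one and above the ratio of 90.7% of tested probe sets. Differences between groups took 17.3% of the total sum of squares of Fos, against a median of 18.5% over all tested probe sets. The log2 fold change was 0.13 (95% interval -0.36 to 0.63) in the Sohlh1 knockout and -0.23 (95% interval -0.72 to 0.26) in the Sohlh2 knockout against wild type. Without the 3 doubted arrays the first was 0.28 (adjusted p = 0.679).

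Jun encodes the most widely used partner of Fos. Its brighter probe set had 1619, 2371, 2879.9 and 2108 on Sohlh1 knockout arrays 2 to 5, then 1503, 2546, 2134 and 2275 on Sohlh2 knockout arrays 1, 3-1, 4 and 5, and 2108, 2315, 1885 and 1706 on wild-type arrays 3 to 6. The lowest arrays of both knockout groups were those of high 3' to 5' ratio. The SD was 1.85 times the expected one with all arrays, and 1.44 times without the 3 doubted arrays. The share of the sum of squares between groups was 4.92% with all arrays and 54.7% without those 3, where the median of all tested probe sets was 28.0%. Log2 fold changes were 0.14 (95% interval -0.24 to 0.52) in the Sohlh1 knockout and 0.06 (95% interval -0.32 to 0.44) in the Sohlh2 knockout against wild type. Without the 3 doubted arrays they were 0.39 (adjusted p = 0.147) and 0.21 (adjusted p = 0.3996), and neither passed. With 1 array left out, the first ran between 0.012 and 0.29.

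The second Jun probe set differed from the brighter one on some arrays. It had 933, 1216, 1289 and 1154 on Sohlh1 knockout arrays 2 to 5, then 1104, 1255, 1026 and 1167 on Sohlh2 knockout arrays 1, 3-1, 4 and 5, and 1290.4, 1204, 908 and 711 on wild-type arrays 3 to 6. Sohlh1 knockout 2 was the lowest of its group for both. Sohlh2 knockout 1, the lowest array of all for the brighter probe set, lay inside its group here, and the lowest array was wild type 6. The 2 probe sets had Pearson r = 0.68 over 12 arrays (permutation p = 0.0140, adjusted p = 0.140) and Spearman rho = 0.73 (permutation p = 0.00855, adjusted p = 0.0855), with r = 0.83 without Sohlh1 knockout 4 and Sohlh2 knockout 1. Adjusted over the 10 relations computed, it did not pass. Its log2 fold changes against wild type were 0.18 in either knockout (95% interval -0.17 to 0.54 in the Sohlh1 knockout and -0.17 to 0.53 in the Sohlh2 knockout). Without the 3 doubted arrays the first was 0.32 (adjusted p = 0.463). The SD of the second probe set was 1.497 times the expected one with all arrays, and 2.11 times without those 3. Its share of the sum of squares between groups was 12.4% with all arrays and 23.1% without those 3, below the median of 28.0%. The brighter probe set differed in both, as its SD ratio fell without those 3 and its share lay above that median.

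Junb, an AP-1 protein that can hold back Jun, was steadier within groups than expected at its dim signal level. On the linear scale its SD was 20.4%, 19.9% and 10.1% of the mean in the Sohlh1 knockout, the Sohlh2 knockout and wild type. For the brighter Jun probe set these were 23.4%, 20.9% and 13.2%. It had 104, 148, 114 and 93.7 on Sohlh1 knockout arrays 2 to 5, then 116, 76.9, 79.8 and 86.1 on Sohlh2 knockout arrays 1, 3-1, 4 and 5, and 171, 134, 148 and 149 on wild-type arrays 3 to 6. All 4 Sohlh2 knockout arrays lay below all 4 wild-type arrays, and Junb was the 1 member of 10 probe sets with such a separation in that comparison (background 8.82% in either direction, 4.69% lower and 4.14% higher). The Sohlh1 knockout overlapped with wild type through array 3. The SD within groups was 0.62 times the expected one, and 69.6% of the sum of squares lay between groups, more than in 96.6% of tested probe sets. Junb averaged 89.6 ± 17.8 in the Sohlh2 knockout and 151 ± 15.2 in wild type (SD, n = 4 each). The log2 fold change was -0.68 (SE 0.19) and did not pass (adjusted p = 0.100), and that in the Sohlh1 knockout was -0.37 (SE 0.19, adjusted p = 0.387), or -0.19 without the 3 doubted arrays (adjusted p = 0.743). The Sohlh2 comparison passed with array weights (-0.73, adjusted p = 0.0276) and without the 3 doubted arrays (-0.79, adjusted p = 0.0457). Over its 28 alternatives the adjusted p ran from 0.0276 to 0.412.

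Fosb, a close relative of Fos, lay above the filter value of 48.6 on 2 arrays, both wild type, and so was not tested. Its signals were 32.9, 28.6, 19.9 and 44.97 on Sohlh1 knockout arrays 2 to 5, then 36.5, 38.4, 40.8 and 35.2 on Sohlh2 knockout arrays 1, 3-1, 4 and 5, and 61.0, 47.9, 59.5 and 45.4 on wild-type arrays 3 to 6. All 8 knockout arrays lay below the 4 wild-type arrays, with Sohlh1 knockout 5 just below wild type 6. Of tested probe sets, 6.08% lay apart and lower in the Sohlh1 knockout and 4.69% in the Sohlh2 knockout. No such share was computed for probe sets as dim as Fosb. At such dim values, and with no detection calls in the table used here, the order of arrays is not firm. In the fit of all 45037 probe sets with no filter, Fosb had log2 fold changes of -0.58 (adjusted p = 0.415) in the Sohlh1 knockout and -0.38 (adjusted p = 0.678) in the Sohlh2 knockout, and it did not pass.

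Atf3, a stress-induced factor of the same bZIP class, had the largest positive difference in the Sohlh1 knockout. Its signal was 287, 424, 400.2 and 229.8 on Sohlh1 knockout arrays 2 to 5, then 236, 248, 231 and 316 on Sohlh2 knockout arrays 1, 3-1, 4 and 5, and 193, 256, 179 and 158 on wild-type arrays 3 to 6. Arrays 3 and 4 of the Sohlh1 knockout were the highest of all, and array 5 lay below wild type 4, so the groups overlapped. Atf3 averaged 335 ± 92.3 in the Sohlh1 knockout and 196 ± 42.2 in wild type (SD, n = 4 each). The log2 fold change was 0.71 (SE 0.20, 95% interval 0.28 to 1.14), with an adjusted p of 0.0917 over all probe sets. With 1 probe set per gene, which leaves fewer tests to adjust over, the same difference passed (adjusted p = 0.0453). It also passed without the 2 arrays of doubted label (0.87, adjusted p = 0.0263), without all 3 doubted arrays (1.04, adjusted p = 0.0185) and with the control ratio in the fit as a covariate (0.75, adjusted p = 0.0391). With any 1 array left out the adjusted p was 0.05004 to 0.254, so it passed in none of those 12 fits. The log2 fold change in the Sohlh2 knockout was 0.38 (SE 0.20, adjusted p = 0.437), and the difference between the knockouts was -0.33 (SE 0.20, adjusted p = 1.00).

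Egr1, a zinc finger factor that ERK signalling induces through serum response factor, had the narrowest range of the 10 genes. It had 2842, 2779.7, 3176 and 3132 on Sohlh1 knockout arrays 2 to 5, then 2608, 2865, 2672 and 3008 on Sohlh2 knockout arrays 1, 3-1, 4 and 5, and 2474, 2627, 2471 and 3061 on wild-type arrays 3 to 6. The whole range over 12 arrays was 1.29-fold and the groups overlapped. Its SD of 0.11 was 0.74 times the expected one, and 1.08 times without the 3 doubted arrays. Log2 fold changes were 0.17 (95% interval -0.03 to 0.37) in the Sohlh1 knockout and 0.07 (95% interval -0.13 to 0.27) in the Sohlh2 knockout against wild type.

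Ier2, a small nuclear protein of immediate early type, ranged from 897 to 1290.3 in the Sohlh1 knockout, from 887 to 1045 in the Sohlh2 knockout and from 900 to 1257 in wild type. The groups overlapped, and its spread was near that expected at its level (1.07 times). Its log2 fold changes were -0.03 (95% interval -0.32 to 0.25) and -0.15 (95% interval -0.43 to 0.13) in the Sohlh1 and the Sohlh2 knockout against wild type.

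The 2 negative regulators were among the steadier members. Dusp1, a phosphatase that switches off MAP kinases, had 1313, 1257, 1335 and 1446 on Sohlh1 knockout arrays 2 to 5, then 1135, 1285, 1285 and 1296 on Sohlh2 knockout arrays 1, 3-1, 4 and 5, and 961, 1210.3, 1107 and 1148 on wild-type arrays 3 to 6. All 4 Sohlh1 knockout arrays lay above all 4 wild-type arrays. Dusp1 was the 1 member of 10 probe sets with such a separation in that comparison (background 11.2% in either direction, 5.07% higher and 6.08% lower). Its SD of 0.11 was 0.63 times the expected one, and 59.5% of the sum of squares lay between groups. The log2 fold change of 0.27 (SE 0.10, 95% interval 0.07 to 0.48) did not pass (adjusted p = 0.185), and that in the Sohlh2 knockout was 0.18 (SE 0.10, adjusted p = 0.447). Over 28 alternatives the adjusted p of the first ran from 0.0691 to 0.339.

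Zfp36 encodes tristetraprolin, which binds AU-rich elements of short-lived mRNAs and speeds their decay. Its signal ran from 330.4 to 457 in the Sohlh1 knockout, from 270.3 to 411 in the Sohlh2 knockout and from 349 to 446 in wild type. The lowest array of all was Sohlh2 knockout 1, and the groups overlapped. Its SD was 0.89 times the expected one, and its log2 fold changes were 0.0073 (95% interval -0.31 to 0.32) in the Sohlh1 knockout and -0.20 (95% interval -0.52 to 0.12) in the Sohlh2 knockout against wild type. Without the 3 doubted arrays the second was -0.10 (adjusted p = 0.826).

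**Figure D2:**
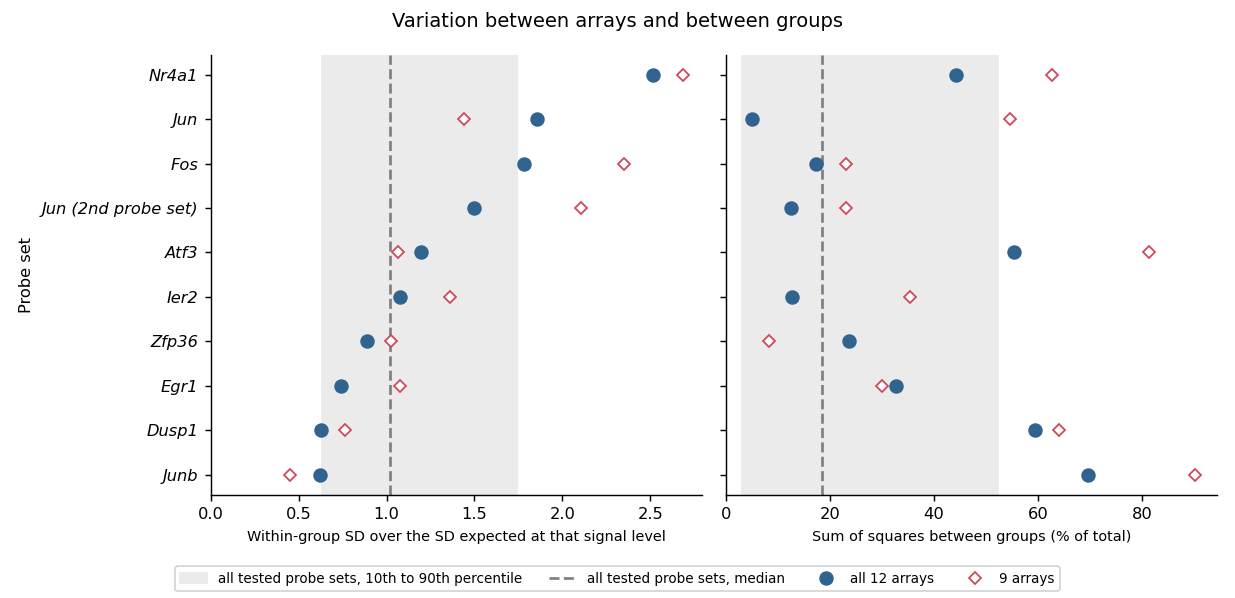
Left, the SD within groups of each tested member probe set over the SD expected at its signal level. Right, the sum of squares between the 3 groups as a percentage of the total. Filled circles use all 12 arrays and open diamonds the 9 arrays that are left once the 3 doubted ones are dropped. The dashed line and the grey band give the median and the 10th to 90th percentile of all 28694 tested probe sets with 12 arrays. Among the filled circles, Nr4a1, the brighter Jun probe set and Fos lay right of the band at left, and Junb, Dusp1 and Atf3 right of it at right.

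Variation between single arrays thus differed widely among the members. Of the 9 tested genes, each represented by its brightest probe set, Nr4a1, Jun and Fos had a ratio of observed to expected SD above the 90th percentile of all probe sets. At the other end, Junb and Dusp1 lay below the 10th percentile. Without the 3 doubted arrays Nr4a1 stood at the 98.9 percentile, Fos at 98.0, Jun at 83.3, Atf3 at 57.9, Egr1 at 59.0, Ier2 at 79.7, Zfp36 at 53.7, Dusp1 at 26.1 and Junb at 3.24. The place of Jun depended on the probe set. Its second one stood at the 83.3 percentile with all arrays and at 96.7 without the 3 doubted arrays. The median ratio of the 9 genes was 1.07, against 1.02 over all tested probe sets. Without adjusting for signal level, 4 of the 9 had an SD above the median of all tested probe sets. The share of the sum of squares between groups had a median of 32.8% over the 9 genes and 18.5% over all tested probe sets, and 6 of the 9 were above that value. That median was 15.0% over 37 other immediate early genes, 7.20% over AP-1 relatives and 13.0% over ERK and serum response factor signalling genes. It was 24.0% over feedback inhibitors and 53.9% over germ cell genes. The members were chosen with earlier results of these data known, and the difference between lists was not tested. For a probe set with no difference between groups the mean share expected is 18.2%. The median of such shares lies below that mean, so 18.2% cannot be set directly against the medians above.

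Among the 37 other immediate early genes tested, 2 had a ratio above the 90th percentile. These were Id3 and Id2, named after their values were seen, and the difference from the members was not tested. Of the 10 tested relatives of the AP-1 family 1 did, and of the 13 tested kinases and factors of ERK and serum response factor signalling 0 did. Of the 11 tested feedback inhibitors of ERK and Egr proteins 1 did. Among 13 heat shock and unfolded protein genes there were 3. Lists of cell markers held such genes too, with 3 of 5 for Leydig cells, 2 of 2 for adipose tissue, 5 of 16 for Sertoli cells, 3 of 11 for macrophages, 1 of 4 for blood, 1 of 8 for endothelium, 1 of 12 for germ cells and 0 of 8 for peritubular muscle. The median ratio was 1.17 over the 37 other immediate early genes and 1.30 over the feedback inhibitors, both above the members' 1.07. It was 0.93 over the AP-1 relatives, 0.88 over the ERK and serum response factor list and 1.035 over the heat shock list.

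Members deviated from their group means in different directions on most arrays. On Sohlh1 knockout 4, 8 of the 9 tested genes lay above the mean of their group, with a mean deviation of 0.20 on the log2 scale. On Sohlh1 knockout 5, 3 of 9 did, with a mean of -0.20. On the other 10 arrays between 2 and 6 of 9 lay above the group mean, with mean deviations between -0.09 and 0.12. On Sohlh1 knockout 5 both were low, with deviations of -0.62 for Nr4a1 and -0.44 for Fos. On wild type 6 Fos was 0.68 below its group mean while Nr4a1 was 0.28 above its own, and on wild type 5 Fos was 0.56 above and Nr4a1 0.39 below (a deviation of -0.39).

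**Figure D3:**
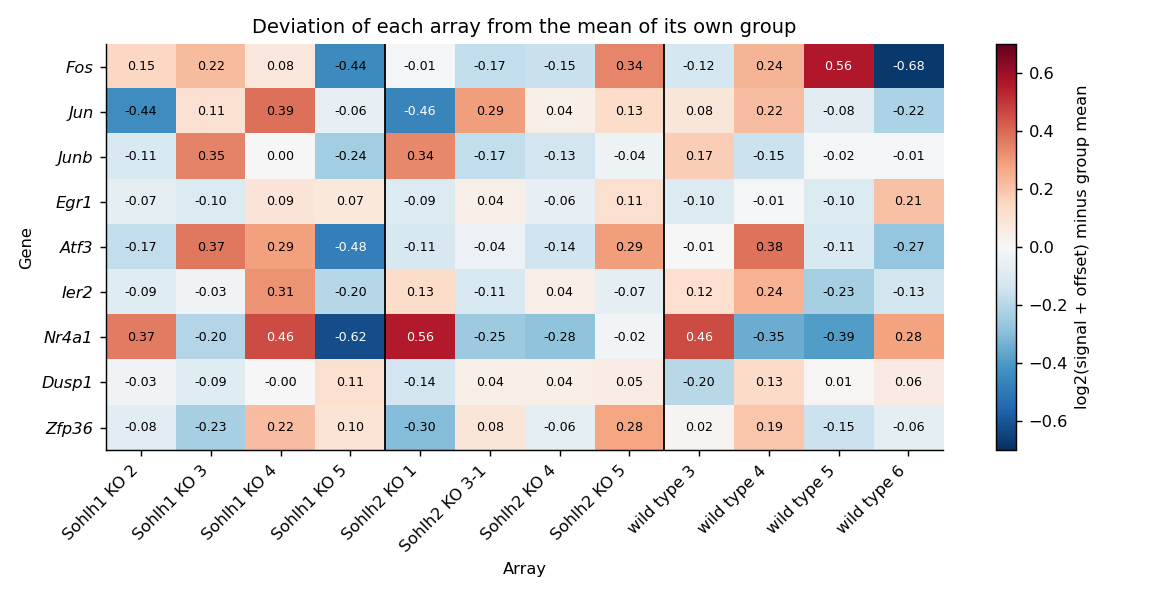
Deviation of each array from the mean of its own group in log2(signal + offset) for the 9 tested genes (rows) on the 12 arrays (columns, with the Sohlh1 knockout, the Sohlh2 knockout and wild type from left to right). Red is above and blue below the group mean. Nr4a1 and Fos were both far below their group mean on Sohlh1 knockout 5 and deviated in opposite directions on wild type 5 and 6, and the rows of Egr1 and Dusp1 are pale.

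None of the 8 relations of Fos with the other tested genes passed a permutation test over the 12 arrays after adjustment over the 10 relations computed. The strongest was that with Atf3 (Pearson r = 0.48, permutation p = 0.120, adjusted p = 0.601; Spearman rho = 0.44, permutation p = 0.154). Without wild type 5 and 6, the arrays farthest from the median of Fos, that r was 0.72, and over deviations from group means it was 0.61 (permutation p = 0.0535, adjusted p = 0.267). Pearson r with Fos was 0.18 for Jun, 0.30 for Junb, -0.28 for Egr1, 0.23 for Ier2, -0.063 for Nr4a1, -0.0079 for Dusp1 and 0.20 for Zfp36. With 12 arrays, only strong relations could have been seen.

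The mean standardised profile of the 9 tested genes served to find the genes most like them. Among 13693 other genes the highest Pearson r over the 12 arrays belonged to Dync1i2, a dynein subunit (0.84), Ciz1 (0.83), Uba3 of the neddylation pathway (0.82), Ints13 (0.81), Zfp866 (0.81), Cdc42ep2 (0.80), Trim45 (0.79) and the sialyltransferase St3gal6 (0.78). The members' own r with that mean ran from 0.037 for Nr4a1 to 0.74 for Zfp36. Dync1i2 was highest on Sohlh1 knockout 4 (2539.6) and lowest on Sohlh2 knockout 1 (1871), the arrays with the highest and the lowest mean profile of the members. These values describe the 12 arrays and name the extremes of a long ranking.

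**Figure D4:**
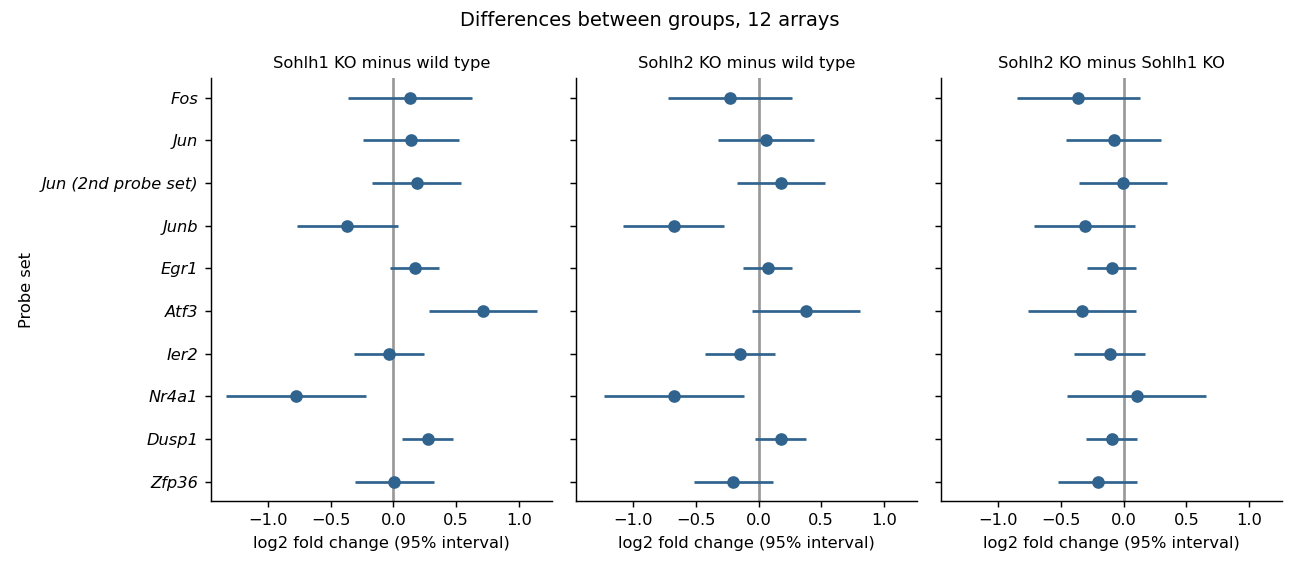
Log2 fold changes of the 10 tested member probe sets with 95% intervals from the limma fit of 12 arrays, for the Sohlh1 knockout minus wild type, the Sohlh2 knockout minus wild type and the Sohlh2 knockout minus the Sohlh1 knockout. The intervals are not adjusted for the number of probe sets. Those of Atf3, Nr4a1 and Dusp1 at left and of Junb and Nr4a1 in the middle leave out 0, and none passed after adjustment.

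The median log2 fold change of the 9 tested genes was 0.13 in the Sohlh1 knockout against wild type, where that of all probe sets was -0.0027. In the Sohlh2 knockout against wild type the medians were -0.15 and -0.0038. Between the Sohlh2 and the Sohlh1 knockout, the median over the genes was -0.11 against -0.0011 over all probe sets, and none passed. All these values come from the same arrays. The Jun probe sets had -0.081 and -0.0065, which were 0.053 and 0.013 without the 2 arrays of doubted label. The 2 knockout groups overlapped for all 10 probe sets, where 1.9% of all probe sets did not overlap (0.979% higher and 0.917% lower). Nr4a1 had a positive value there, 0.10 (95% interval -0.45 to 0.66), which was -0.29 without the 2 arrays of doubted label. The widest negative differences were those of Fos (-0.36, 95% interval -0.85 to 0.13) and Atf3 (-0.33, 95% interval -0.76 to 0.10).

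Other genes of the pathway came from lists drawn up by function. Of 37 other immediate early genes tested, 1 passed the F test, where 1.58% of all tested probe sets did. It was Socs3, an inhibitor of cytokine signalling. Socs3 averaged 426 ± 91.3 in the Sohlh1 knockout against 212 ± 43.8 in wild type (SD, n = 4 each) and rose by 0.96 on the log2 scale (adjusted p = 0.0133), or by 0.95 without the 3 doubted arrays (adjusted p = 0.0304). In the Sohlh2 knockout it had 0.67 (adjusted p = 0.0849). Egr2, a relative of Egr1, had 0.66 (adjusted p = 0.101) and 0.62 (adjusted p = 0.144), and Klf10 had -0.28 and -0.38, without passing. The medians of the 37 were 0.0071 and -0.030.

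Feedback inhibitors held 1 changed gene of 11 tested. Over all tested probe sets, 2.09% passed in the Sohlh1 knockout and 1.55% in the Sohlh2 knockout, each against wild type. Dusp2, a phosphatase of MAP kinases best known from lymphocytes, averaged 86.7 ± 36.2 in the Sohlh1 knockout and 74 ± 38.4 in the Sohlh2 knockout, against 222 ± 47.8 in wild type (SD, n = 4 each). It fell in both, with log2 fold changes of -1.28 (adjusted p = 0.0483) and -1.49 (adjusted p = 0.0261). Without the 3 doubted arrays the first did not pass (-1.21, adjusted p = 0.0787) and the second did (-1.28, adjusted p = 0.0290). With 1 array left out, adjusted p ran between 0.0167 and 0.165 for the first, which passed in 2 of 12 fits, and between 0.0113 and 0.0991 for the second, which passed in 7 of 12. Nab2 and Nab1, corepressors that bind Egr proteins, had 0.34 and 0.22 in the Sohlh1 knockout and 0.32 and 0.21 in the Sohlh2 knockout, without passing. Of the 10 tested AP-1 relatives 0 changed, with medians of 0.09 and 0.11; Atf2 had 0.28 and Jund 0.21 in the Sohlh1 knockout. Of 13 kinases and factors of ERK and serum response factor signalling 0 changed, with medians of 0.06 and 0.0076; Elk4 had 0.26 and 0.28 and Srf 0.30 and 0.28. Of 13 heat shock and unfolded protein genes 0 changed, with medians of 0.10 and 0.10. For scale, Kit, a receptor of differentiating spermatogonia, fell in both knockouts, with log2 fold changes of -1.92 and -1.95 in the same fit (adjusted p = 1.94e-05 and 1.61e-05), and passed in both under all 28 alternatives.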

How the data were processed

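Affymetrix arrays of 12 pools of testes were analysed, 4 per genotype, grouped by sample title. The deposited values are linear intensities. The submitters' processing notes name MAS5 and GCOS for what the authors did, without versions. No detection calls were used here. Labelling with an oligo(dT) primer, per the labels' protocols, weights signals towards the 3' ends of transcripts.

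From the deposited intensity, log2(value + 14.2) was computed, the offset being the 20th percentile outside the controls. Log2 fold changes on this scale understate changes of dim genes. Leaving aside 64 control probe sets, a probe set was tested if above 48.6 (the 40th percentile) on at least 4 arrays, which 28694 were. Symbols came from the platform annotation; 34741 of 34945 matched RefSeq genes of GRCm38.p6 by Entrez identifier and 0 changed. A gene with several probe sets is represented by the one with the highest mean.

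All 12 arrays entered 1 fit with limma 3.58.1 in R 4.3.3 (eBayes with a mean-variance trend, genotype as the only term), two-sided, with Benjamini-Hochberg adjustment over all probe sets tested. The threshold was an adjusted p under 0.05, and only what passed it is said to have changed, risen or fallen. The expected SD is limma's trended prior SD. Correlations used 100000 permutations, within groups for deviations from group means. The number of arrays limits the precision. The steps were tested on simulated data. Alternatives were other offsets, normalizations, filters, features, moderation, weights, fits of 2 groups, replicate blocks and left-out arrays. Same-numbered arrays of different groups had correlated deviations of -0.12 to 0.10, so the numbers were not taken to pair them.

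The members and lists were chosen with earlier results of these data known. Named genes were all members, up to 3 genes per list with the smallest F-test p, and the 8 genes most like the mean profile. The comparison of Nr4a1 with Leydig cell markers and of the Jun probe sets was added after their values were seen. Figures were drawn with matplotlib 3.10.9.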

Additional observations from a re-analysis of the deposited data

Results flagged for a closer look

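In 30 sets of 4 arrays (10 member probe sets in 3 groups), the highest or lowest array was checked for standing apart from the others, a check that chance trips in about 1 set in 20. It did so in 1. Dusp1 had 1135 on Sohlh2 knockout 1, while the other 3 Sohlh2 knockout arrays had 1285, 1285 and 1296. The gap was 0.933 of the group's range on the log2 scale. The label of that array is doubted and its 3' to 5' control ratio was the highest of all, and their part in the value was not tested.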

How the results depend on the processing

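The 4 counts of member probe sets that passed (0 each) moved under 6 of the alternatives. Between the Sohlh1 knockout and wild type, 1 passed with 1 probe set per gene, without the 2 arrays of doubted label, without the 2 arrays whose 3' to 5' ratio was high and without all 3, and 2 passed with that ratio as a covariate. Between the Sohlh2 knockout and wild type, 1 passed with array weights and with the covariate, and 2 without all 3 doubted arrays. By the F test 1 passed with the covariate (Nr4a1) and 1 without all 3 doubted arrays (Atf3). The count of genes with an SD above the median was 4. It was 2 with no filter, 5 with 1 probe set per gene, and 3 with array weights, with the covariate, without Sohlh1 knockout 5, without the arrays of high ratio and without all 3 doubted arrays. Between the knockouts 0 passed under any alternative. With 1 array left out, these 4 counts of passing probe sets stayed at 0.

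Of 837 recomputed fold changes of members 32 had the opposite sign, none of which passed; causes were not tested. For Ier2 in the Sohlh1 knockout these were 0.011 with median centring, 0.033 without the arrays of doubted label and 0.11 without all 3 doubted arrays. For Zfp36 there they were -0.017 with array weights, -0.025 without the arrays of doubted label and -0.00064 without all 3. Between the knockouts, Nr4a1 had -3.96e-05 with array weights, -0.29 without the arrays of doubted label and -0.21 without all 3. The Jun probe sets there had 0.053 and 0.013 without the arrays of doubted label, and the second had 0.0043 with the covariate. With 1 array left out, values ran from -0.092 to 0.32 for Fos, -0.14 to 0.047 for Ier2 and -0.065 to 0.085 for Zfp36 in the Sohlh1 knockout, and from -0.037 to 0.21 for the brighter Jun probe set in the Sohlh2 knockout, each against wild type. Between the knockouts they ran from -0.23 to 0.073 and -0.10 to 0.052 for the Jun probe sets and from -0.10 to 0.26 for Nr4a1. With the replicate block, whichever way 3-1 was numbered, Fos in the Sohlh1 knockout had -0.14, and no call of a member changed. Alternatives for the listed genes that passed were added after the data were seen; with the block Dusp2 did not pass in the Sohlh1 (-1.28) or the Sohlh2 knockout (-1.09 or -1.15).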
